A study of Danio rerio with 12 samples.

Results

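Lymphocytes are the cells of adaptive immunity. T cells read antigen through the T cell receptor, whose signal passes from the kinase Lck to the kinase Zap70 with the help of the co-receptors Cd4 and Cd8. B cells read it through a membrane-bound immunoglobulin, which signals through the Cd79a and Cd79b chains. Transcription factors fix the lineages: Ikzf1 (Ikaros) acts in lymphoid development and is also made in other blood cells, Pax5 commits cells to the B lineage, Foxp3 marks regulatory T cells and Tbx21 (T-bet) marks type 1 helper T cells and natural killer cells. After cardiac injury lymphocytes are a small part of the leukocytes that enter the heart, beside the far more numerous neutrophils and macrophages.

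The 10 genes described here were chosen by name among the 22736 genes of the table: lck, zap70, cd4-1, cd8a, cd79a, cd79b, pax5, foxp3a, tbx21 and ikzf1. Each matched 1 row. Their levels were followed in hearts of adult zebrafish that carried the loss-of-function allele hu3568 of myd88 on both chromosomes (myd88-/-) and of their wild-type siblings (myd88+/+). MyD88 is the adaptor of most Toll-like receptors and of the interleukin 1 receptor family. The 3 states of each genotype were untouched ventricles (UT), injured tissues 1 hour post cryoinjury (hpci) and injured tissues 24 hpci, where the apex of the ventricle had been frozen with a cold probe. Each state of each genotype had 2 libraries, and each library came from 3 pooled ventricles or injured tissues. Comparisons with UT therefore set a piece of injured tissue beside a whole ventricle, and injury and sampled region cannot be told apart in them.

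Values are normalized counts: reads per gene scaled by the authors for the depth of the library and rounded to whole numbers. The libraries held an estimated 1476013 to 4123603 reads. In 11 of the 12 libraries 1 read was worth 0.73 to 1.1 normalized counts, and in replicate 1 of myd88+/+ at 24 hpci, the shallowest, 2.5. The targeted gene myd88 had 32 and 37 normalized counts in untouched myd88-/- ventricles and 63 and 56 in untouched myd88+/+ ventricles. At 1 hpci it had 199 and 210 in myd88-/- tissues and 200 and 171 in myd88+/+ tissues, and at 24 hpci 43 and 66 in myd88-/- tissues and 79 and 113 in myd88+/+ tissues. Its level in myd88-/- was thus below that of both myd88+/+ libraries in UT and at 24 hpci but not at 1 hpci, and a level of RNA does not check an allele that leaves the transcript in place. Cardiomyocyte marker genes summed to between 17696 and 43365 normalized counts in all 12 libraries. In the shallowest library, replicate 1 of myd88+/+ at 24 hpci, they summed to 40269. In the other 24 hpci libraries they summed to between 17696 and 21229. The shallowest library also had the highest value of 17.03% of all genes, of 16 of 19 pan-leukocyte genes and of 18 of 21 macrophage marker genes.

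One library stood apart by genes far above their level in all others. Replicate 2 of myd88+/+ at 1 hpci had 444 genes at more than 2 times their level in every other library, against at most 181 in any other. Fast skeletal muscle genes, a list chosen after the values were seen, summed to 12041 normalized counts there and to between 32 and 273 in the other libraries, and the fast myosin gene myhz2 had 1815 against at most 31. The skin keratin gene krt5 had 309 there and at most 116 elsewhere. This library also had the highest values of 3 of the 10 members (foxp3a, tbx21 and zap70), and of 9 of the 35 genes of a T cell list and 7 of the 26 of a list of natural killer (NK) and cytotoxic genes, against 8.92% of all genes in the table. Results that touch 1 hpci are therefore given with and without it where its removal changes a call.

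All members were scarce in these hearts. Only 5 of the 10 (zap70, cd4-1, cd79a, cd79b and ikzf1) had a mean above 5 normalized counts over the 12 libraries, the limit set for the test, and cd8a was covered by between 11 and 13 estimated reads in all 12 libraries together. The other members had totals from 35 to 54 reads where they were below the limit and from 87 reads upward where they passed it, with 875 to 878 for ikzf1. At such depths counting error alone is wide: 95% Poisson intervals, which cover counting error only, were 5.49 to 22.23 reads for cd8a, 24.38 to 52.16 for pax5 and 105 to 153 for cd79a.

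**Figure D1:**
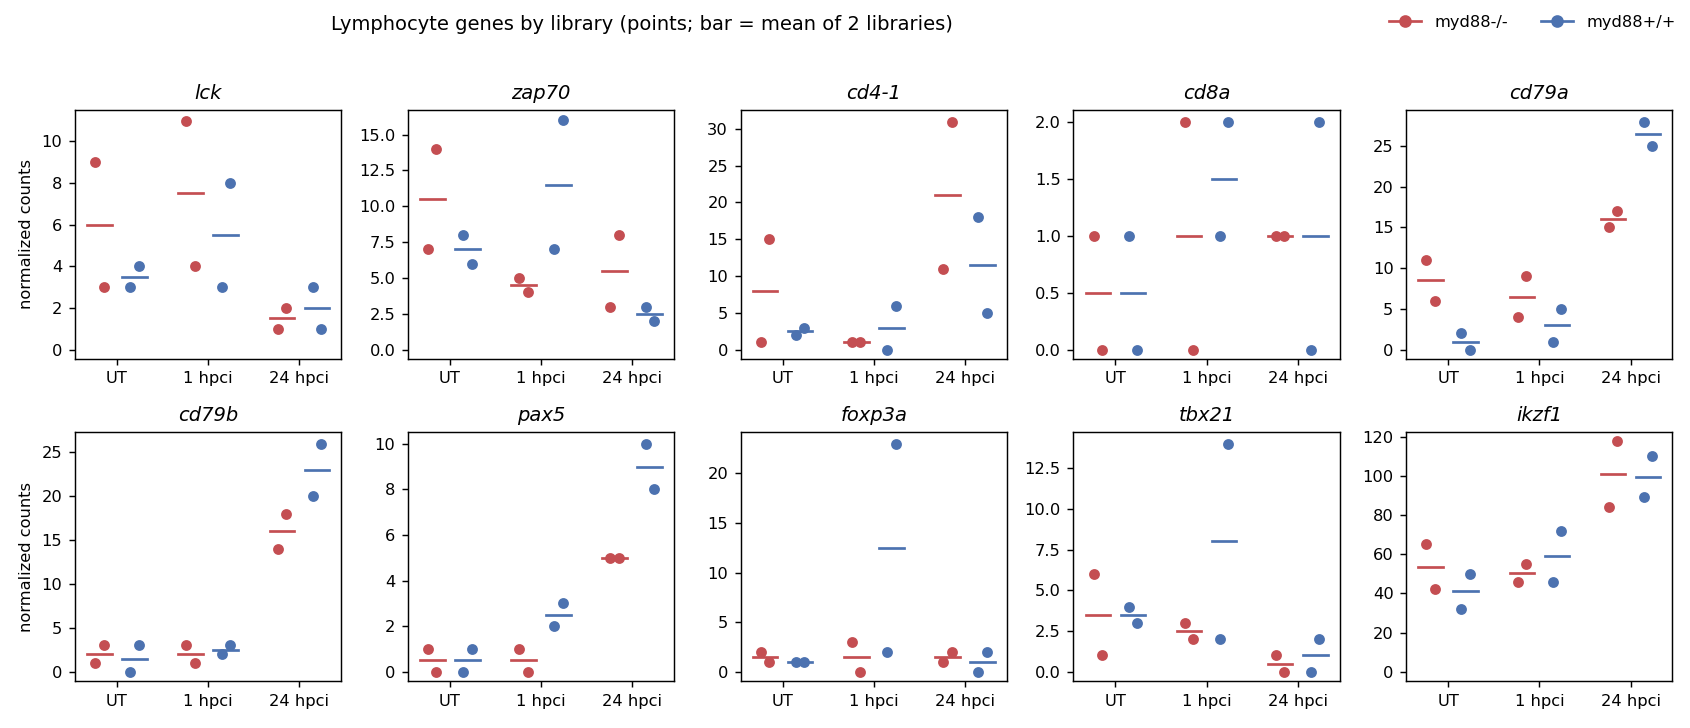
Normalized counts (y axis, linear) of the 10 members in each of the 12 libraries, by state (x axis), with myd88-/- in red to the left of myd88+/+ in blue; points are libraries and bars the mean of 2. At 24 hpci cd79a (15 to 28), cd79b (14 to 26), pax5 (5 to 10) and ikzf1 (84 to 118) lay above every UT and 1 hpci library, and the high points of foxp3a (23) and tbx21 (14) at 1 hpci are 1 library.

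Of the B cell genes, cd79b rose in the injured tissue between 1 and 24 hpci in both genotypes and cd79a in myd88+/+. cd79a (ENSDARG00000037473, danRer11 chromosome 16, 26132951 to 26140768, minus strand) encodes Ig-alpha, the signaling chain of the B cell receptor. It had 11 and 6 normalized counts in untouched myd88-/- ventricles and 2 and 0 in untouched myd88+/+ ventricles. At 1 hpci it had 4 and 9 in myd88-/- tissues and 1 and 5 in myd88+/+ tissues, and at 24 hpci 15 and 17 in myd88-/- tissues and 28 and 25 in myd88+/+ tissues. All 4 libraries of 24 hpci were above all 8 others. Among the 24 hpci libraries both of myd88+/+ were above both of myd88-/-, and in UT both of myd88-/- were above both of myd88+/+. Here and below, 2 libraries against 2 cannot give an exact two-sided permutation p below 0.33. Such an order alone is thus not read as a difference between the genotypes. cd79a overlaps BX571738.1 on the opposite strand, and reads that fell on more than 1 gene had been discarded upstream.

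cd79b (ENSDARG00000104691, chromosome 12, 4900981 to 4906924, plus strand) encodes Ig-beta, the partner of Ig-alpha. Its values were 1 and 3 in untouched myd88-/- ventricles, 0 and 3 in untouched myd88+/+ ventricles, 3 and 1 in myd88-/- tissues at 1 hpci and 2 and 3 in myd88+/+ tissues at 1 hpci. At 24 hpci it had 14 and 18 in myd88-/- tissues and 20 and 26 in myd88+/+ tissues. No other library reached the lowest of 24 hpci, and again both myd88+/+ libraries of 24 hpci were above both of myd88-/-.

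pax5 (ENSDARG00000037383, chromosome 1, 21725821 to 21815554, plus strand), the transcription factor of B lineage commitment, had few counts in any library. It had 1 and 0 in untouched myd88-/- ventricles, 0 and 1 in untouched myd88+/+ ventricles, 1 and 0 in myd88-/- tissues at 1 hpci and 2 and 3 in myd88+/+ tissues at 1 hpci. By 24 hpci pax5 had 5 and 5 in myd88-/- tissues and 10 and 8 in myd88+/+ tissues. Its order of levels at 24 hpci was that of cd79a and cd79b. With a mean below the limit it was not part of the main test.

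The question of the time course is whether a level in injured tissue differed from that of UT ventricles and whether it went on changing after the first hour. The test was limma on log2(value + 1) over all 16643 genes with a mean above 5, with Benjamini-Hochberg adjustment over all of them, and a gene was called at an adjusted p below 0.05 and a fold change above 1.5 in either direction. The added 1 makes fold changes of genes at so few counts too small. SE is the standard error from the fit. Of the tested members, cd79a, cd79b and cd4-1, passed the limit through their 24 hpci libraries: over the 8 libraries of UT and 1 hpci they averaged 4.75, 2.0 and 3.62 normalized counts. Counts of members called higher at 24 hpci are therefore partly set by the filter, and nothing is read from them against the share of all genes. In myd88+/+, 3 members were called higher at 24 hpci than in UT, where 19% of all tested genes were called higher: cd79a, cd79b and ikzf1. On the log2 scale the change was 3.99 for cd79a (SE 0.74, limma adjusted p = 0.0022) and 3.57 for cd79b (SE 0.77, limma adjusted p = 0.0047). Both calls held in each of the 22 alternatives in which the genes were tested. Against 1 hpci, 2 were called higher (16.9% of all genes), with 2.99 for cd79a (limma adjusted p = 0.011) and 2.78 for cd79b (limma adjusted p = 0.017). Without replicate 1 of myd88+/+ at 1 hpci the adjusted p was 0.063 for cd79a and 0.062 for cd79b, and without replicate 2 of myd88+/+ at 24 hpci it was 0.058 for cd79b. In a fit of only the groups compared it was 0.068 for cd79a and 0.062 for cd79b. Leaving out replicate 2 of 1 hpci, the library that stood apart, ended neither call.

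In myd88-/-, 1 member was called higher at 24 hpci than in UT (15.6% of all genes). This was cd79b, with 2.58 on the log2 scale (SE 0.77, limma adjusted p = 0.027). It was also 1 of the 2 called higher against 1 hpci (18.1% of all genes), with 2.58 (limma adjusted p = 0.024). The call against UT was lost without any 1 of the 4 libraries compared, with adjusted p from 0.056 to 0.168, and the call against 1 hpci without replicate 2 of myd88-/- at 1 hpci (0.142) and without either of the 24 hpci libraries (0.077 and 0.138). cd79a was not called in myd88-/-, with 0.89 against UT (limma adjusted p = 0.39) and 1.3 against 1 hpci (limma adjusted p = 0.21). A call in 1 genotype and none in the other does not show a difference between them, which was tested separately.

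As estimated reads, cd79a had 42 in myd88-/- tissues at 24 hpci against 18 in UT ventricles, a ratio after depth of 1.74 (95% interval 0.98 to 3.21), and 44 in myd88+/+ tissues against 2, a ratio of 24.0 (6.27 to 204.6). For cd79b the ratios to UT were 7.83 (2.84 to 30.1) in myd88-/- and 15.3 (4.89 to 77.1) in myd88+/+, and for pax5 they were 9.69 (1.46 to 411.8) in myd88-/- and 15.3 (2.33 to 646.6) in myd88+/+. These exact intervals cover counting error and not the spread between libraries. Of the 44 reads of cd79a in myd88+/+ at 24 hpci, 11 were from the shallow replicate 1, where cd79b had 8 reads and pax5 4.

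**Figure D2:**
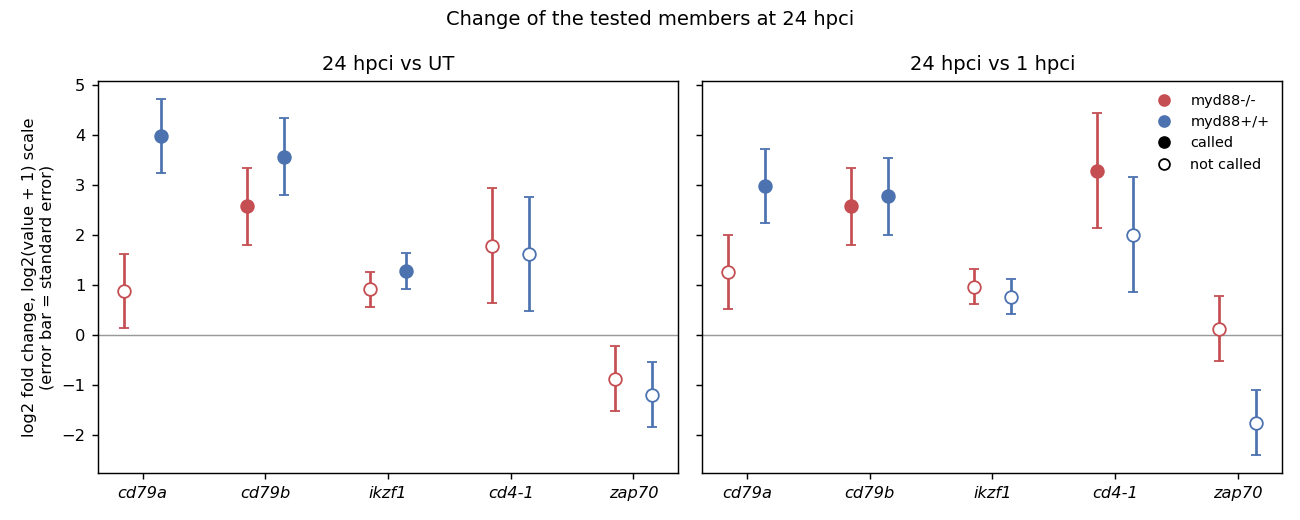
Log2 fold change on the log2(value + 1) scale (y axis, error bars standard error from the fit, 2 libraries a group) of the 5 tested members at 24 hpci against UT (left) and against 1 hpci (right), with myd88-/- in red to the left of myd88+/+ in blue; filled points were called. cd79b was called in all 4 comparisons and cd79a only in those of myd88+/+, while zap70 was called in none.

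Over both genotypes together, in a contrast added after the data were seen, 3 members were called higher at 24 hpci than in UT (22.4% of all genes) and 4 higher than at 1 hpci (22.5% of all genes). Against UT the averaged log2 fold change was 2.44 for cd79a (limma adjusted p = 0.0029), 3.08 for cd79b (limma adjusted p = 0.00091) and 1.1 for ikzf1 (limma adjusted p = 0.0041). Against 1 hpci it was 2.12 for cd79a (limma adjusted p = 0.0063), 2.68 for cd79b (limma adjusted p = 0.0020), 2.65 for cd4-1 (limma adjusted p = 0.019) and 0.87 for ikzf1 (limma adjusted p = 0.014). The calls of cd79a and cd79b held in every one of their 22 alternatives, and that of cd4-1 was lost without replicate 1 of myd88+/+ at 1 hpci (adjusted p = 0.065), replicate 2 of myd88-/- at 24 hpci (0.078) or replicate 1 of myd88+/+ at 24 hpci (0.061). An exact two-sided permutation test of 4 libraries against 4 gave p = 0.0286, the smallest it can give, for cd79a, cd79b, pax5 and ikzf1, both against UT and against 1 hpci, among 30 such tests made. The test exchanged libraries across the genotypes and made no allowance for a difference between them. The 24 hpci libraries of cd79a, cd79b, pax5 and ikzf1 did not overlap those of UT, as in 23.9% of all tested genes, nor those of 1 hpci, as in 22% of them. pax5 was below the limit and is not part of these shares.

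Ikzf1, the zinc finger factor Ikaros, had at least 32 normalized counts in every library, far from the floor of 3 reads. ikzf1 (ENSDARG00000013539, chromosome 13, 15957508 to 15994472, minus strand) had 65 and 42 normalized counts in untouched myd88-/- ventricles, 32 and 50 in untouched myd88+/+ ventricles, 46 and 55 in myd88-/- tissues at 1 hpci and 46 and 72 in myd88+/+ tissues at 1 hpci. By 24 hpci ikzf1 had 84 and 118 in myd88-/- tissues and 89 and 110 in myd88+/+ tissues. The genotypes overlapped in every state, and the 24 hpci libraries were above all others. In myd88+/+ the log2 fold change was 1.28 against UT (SE 0.35, limma adjusted p = 0.016). That call was lost without replicate 1 of the UT ventricles (adjusted p = 0.12), without replicate 2 of 24 hpci (0.055) and in a fit of only the groups compared (0.058). In myd88-/- it was 0.92 against UT (limma adjusted p = 0.073) and 0.97 against 1 hpci (limma adjusted p = 0.055), short of the threshold. Without the library that stood apart the value against 1 hpci was called (adjusted p = 0.043), and without the other myd88+/+ library of 1 hpci too (0.045). With the replicate number as a block within each genotype, ikzf1 was called in myd88-/- against UT (0.044) and against 1 hpci (0.033). The averaged call against 1 hpci was lost without replicate 2 of myd88-/- at 24 hpci (adjusted p = 0.063).

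The T cell receptor kinases did not rise at 24 hpci. lck (ENSDARG00000102525, chromosome 17, 25344734 to 25382376, minus strand), the Src-family kinase that starts the signal of the T cell receptor, had 9 and 3 in untouched myd88-/- ventricles, 3 and 4 in untouched myd88+/+ ventricles, 11 and 4 in myd88-/- tissues at 1 hpci and 3 and 8 in myd88+/+ tissues at 1 hpci. By 24 hpci lck had 1 and 2 in myd88-/- tissues and 3 and 1 in myd88+/+ tissues. The 4 libraries of 24 hpci were at or below the lowest of the other 8, with a tie at 3. The 3 of 24 hpci, in the shallow replicate 1 of myd88+/+, was 1 read. lck was below the limit of the main test. By the exact permutation test of 4 libraries against 4, p was 0.0571 against 1 hpci and 0.0857 against UT.

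zap70 (ENSDARG00000015752, chromosome 8, 20393250 to 20414364, plus strand), the kinase that docks on the phosphorylated receptor, had 7 and 14 in untouched myd88-/- ventricles, 8 and 6 in untouched myd88+/+ ventricles, 5 and 4 in myd88-/- tissues at 1 hpci and 7 and 16 in myd88+/+ tissues at 1 hpci. By 24 hpci zap70 had 3 and 8 in myd88-/- tissues and 3 and 2 in myd88+/+ tissues. The highest value was that of the library that stood apart. The 3 and 2 of myd88+/+ at 24 hpci were 3 to 4 estimated reads together. The 3, in the shallow replicate 1, was 1 read. Between 24 and 1 hpci the log2 fold change was 0.13 in myd88-/- (limma adjusted p = 0.90) and -1.75 in myd88+/+ (SE 0.65, limma adjusted p = 0.057), and neither was called. Without replicate 1 of myd88+/+ at 1 hpci, which leaves that group to the library that stood apart, the value in myd88+/+ was -2.29 and called (adjusted p = 0.038). Without the trend of the variance on the level zap70 was called lower in myd88+/+ at 24 than at 1 hpci (0.029), and lower over both genotypes at 24 hpci than in UT (-1.03, adjusted p = 0.039).

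Of the co-receptors, cd4-1 (ENSDARG00000070668, chromosome 16, 11911897 to 11946139, minus strand) binds class II histocompatibility molecules on helper T cells and in zebrafish is also made by mononuclear phagocytes. Its replicates were far apart. It had 1 and 15 in untouched myd88-/- ventricles, 2 and 3 in untouched myd88+/+ ventricles, 1 and 1 in myd88-/- tissues at 1 hpci and 0 and 6 in myd88+/+ tissues at 1 hpci. At 24 hpci it had 11 and 31 in myd88-/- tissues and 18 and 5 in myd88+/+ tissues. In myd88-/- it was called higher at 24 than at 1 hpci, with 3.29 on the log2 scale (SE 1.15, limma adjusted p = 0.046). This was the least firm call among the members: 12 of its 22 alternatives kept it, and 6 of the 12 fits with 1 library left out did, with an adjusted p of 0.26 without replicate 2 of myd88-/- at 24 hpci, 0.070 without replicate 1, 0.14 without either myd88-/- library of 1 hpci and 0.064 and 0.065 without replicates 1 and 2 of the untouched myd88+/+ ventricles. In myd88+/+ the value was 2.01 (limma adjusted p = 0.20).

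cd8a (ENSDARG00000044797, chromosome 21, 11560153 to 11563406, plus strand), the co-receptor of cytotoxic T cells, had between 0 and 2 normalized counts in every library and 0 in 4 of the 12. A level of 3 reads corresponded to between 2.18 and 7.62 normalized counts a library, so that no difference in cd8a was detectable at this depth.

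The remaining factors mark subsets of T cells. foxp3a (ENSDARG00000055750, chromosome 8, 25716308 to 25729543, minus strand) had 23 normalized counts in replicate 2 of myd88+/+ at 1 hpci and between 0 and 3 in the other 11 libraries, 2 in replicate 1 of the same group among them. tbx21 (ENSDARG00000004473, chromosome 12, 28749189 to 28770817, plus strand) had 14 in that library. Elsewhere it had 6 and 1 in untouched myd88-/- ventricles, 4 and 3 in untouched myd88+/+ ventricles, 3 and 2 in myd88-/- tissues at 1 hpci and 2 in the other myd88+/+ library at 1 hpci, and at 24 hpci it had 1 and 0 in myd88-/- tissues and 0 and 2 in myd88+/+ tissues. The high levels of foxp3a and tbx21 at 1 hpci were thus those of a single library.

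Some other T and NK cell genes were highest in the same library. Most were not: it held the highest value of 9 of 35 T cell list genes and 7 of 26 NK and cytotoxic genes. The recombinase gene rag1 had 30 normalized counts there and at most 7 elsewhere, the thymocyte gene themis 14 and at most 5, the interleukin 7 receptor gene il7r 13 and at most 5, the NK-lysin gene nkl.1 37 and at most 17, and the T-box gene eomesa, which acts in NK and cytotoxic T cells, 20 and at most 9. These 5 were picked after their values were seen. lck had 8 there, below the 11 of replicate 1 of myd88-/- at 1 hpci, and cd8a 2. cd28 had 6 there and 21 in replicate 1 of the same group, and prf1.5 77 and 103. The T cell list summed to 2081 there and 1360 in replicate 1, and the NK and cytotoxic list to 1115 and 1333. The part that tissue other than heart had in these values was not tested.

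**Figure D3:**
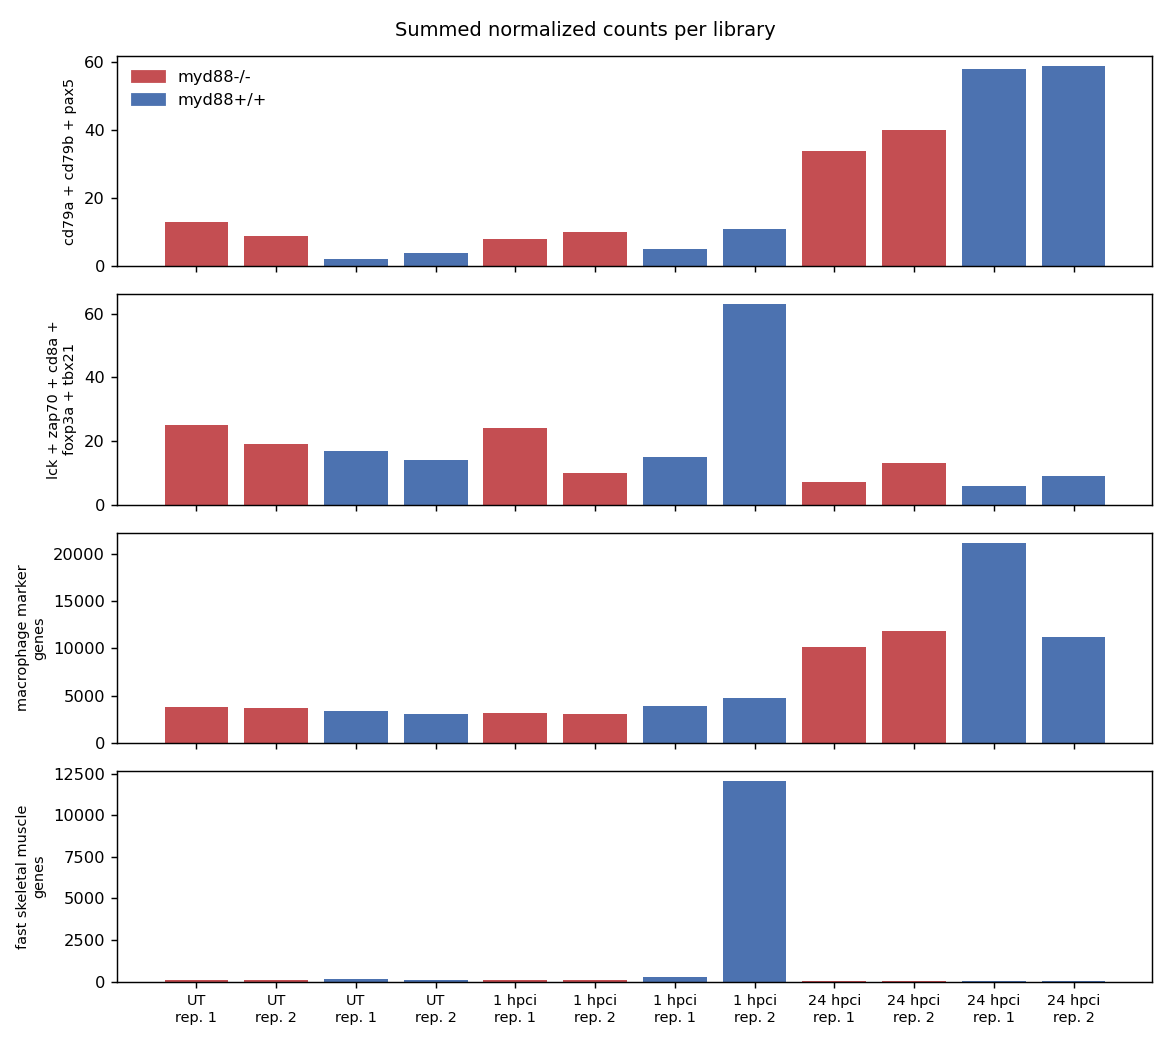
Summed normalized counts (y axes, linear from 0) in each of the 12 libraries (x axis) of the 3 B cell members, of 5 T cell members without cd4-1, of the macrophage marker genes and of the fast skeletal muscle genes, with myd88-/- in red to the left of myd88+/+ in blue within each state. The B cell sum was 34 to 59 at 24 hpci and 2 to 13 in the other libraries, and the T cell sum was highest (63) in the library with 12041 of fast skeletal muscle genes.

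Summed by lineage, cd79a, cd79b and pax5 gave 2 to 13 normalized counts in the 4 UT libraries, 5 to 11 in the 4 of 1 hpci and 34 to 59 in the 4 of 24 hpci. lck, zap70, cd8a, foxp3a and tbx21 gave 14 to 25 in UT, 10 to 63 at 1 hpci (10 to 24 without the library that stood apart) and 6 to 13 at 24 hpci. With cd4-1, which had its highest value at 24 hpci, the T cell sum was 18 and 44 in myd88-/- and 24 and 14 in myd88+/+ at 24 hpci, and 26 and 34 in myd88-/- and 19 and 17 in myd88+/+ in UT. The B cell sum of 24 hpci was thus above that of every UT library, and the T cell sum of 24 hpci was below it only with cd4-1 left out. Markers of other leukocytes moved as well. Of 18 tested pan-leukocyte genes, 16 rose in myd88-/- and 18 in myd88+/+ between UT and 24 hpci, and their sum was 10085 to 17623 at 24 hpci against 1885 to 2703 in UT. Of 21 macrophage marker genes, 16 rose in myd88-/- and 17 in myd88+/+, with a sum of 10168 to 21168 at 24 hpci against 3105 to 3873 in UT. Of all tested genes 15.6% rose in myd88-/- and 19% in myd88+/+. The highest sum of both lists was that of replicate 1 of myd88+/+ at 24 hpci. The other 24 hpci libraries had 10085 to 11625 for pan-leukocyte and 10168 to 11850 for macrophage genes. The part of such leukocytes in the B cell genes was not tested. More cells of a type and more RNA per cell cannot be told apart in such bulk samples.

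The question of the genotype comparison is whether lymphocyte genes depended on MyD88 in each state. No member was called in UT (2.08% of all genes were), at 1 hpci (0.12%) or at 24 hpci (0.03%). Of all 16643 tested genes 2718 had an unadjusted limma p below 0.05 in UT, 1472 at 1 hpci and 853 at 24 hpci. Nothing particular to the members is read from their counts at this level. Of the 5 tested members 1 had such a p in UT and 0 at 1 and at 24 hpci. The 1 was cd79a in UT ventricles, at 8.5 ± 3.54 normalized counts in myd88-/- and 1.0 ± 1.41 in myd88+/+ (SD, n = 2 each), with a log2 fold change of 2.40 (limma unadjusted p = 0.0082, adjusted p = 0.13). At 24 hpci it had 16.0 ± 1.41 in myd88-/- and 26.5 ± 2.12 in myd88+/+ (SD, n = 2 each), with a log2 fold change of -0.69 (limma adjusted p = 0.79).

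Whether the time course itself differed was tested as the change in myd88-/- minus the change in myd88+/+. No member was called for the change to 1 hpci (0.138% of all genes were), the change from UT to 24 hpci (0.0481%) or that from 1 to 24 hpci (0.018%). The lowest unadjusted p was that of cd79a for UT to 24 hpci, with a difference of -3.10 on the log2 scale (SE 1.05, limma unadjusted p = 0.014, adjusted p = 0.46). No other member had an unadjusted p below 0.05 in the 3 tests. Of all 16643 tested genes 1425, 1394 and 991 had one in these tests.

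At 1 hpci, no member was called against UT ventricles in myd88-/- (10.4% of all genes were called) or in myd88+/+ (8.73%). In either genotype 0 of 5 had an unadjusted limma p below 0.05. Of all 16643 tested genes 4303 had one in myd88-/- and 4119 in myd88+/+.

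Beyond the 10 members, the lymphocyte genes were followed as lists. Of 32 tested genes of the B cell receptor and B cell list, 17 rose and 1 fell in myd88-/- between UT and 24 hpci, and 21 rose and 1 fell in myd88+/+. The median log2 fold change was 1.65 in myd88-/- and 2.23 in myd88+/+, where that of all tested genes was -0.01 in both. Of all tested genes 15.6% rose and 14.5% fell in this comparison in myd88-/-, and 19% rose and 20.9% fell in myd88+/+. Against 1 hpci, 18 rose and 2 fell in myd88-/- (median 1.2) and 16 rose and 2 fell in myd88+/+ (median 1.03). Of all tested genes 18.1% rose and 16.3% fell in myd88-/-, and 16.9% rose and 18% fell in myd88+/+. Many genes of this list, such as btk, syk, lyn, ptpn6 and irf8, act in myeloid cells too, so that the count is not one of B cells. As with the members, the filter partly sets the counts and medians of the lists at 24 hpci. The list genes swap70a, ighd, txk, il21 and nitr5 averaged below the limit of 5 over the UT and 1 hpci libraries. They passed it through their 24 hpci libraries.

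Of the genes nearer to the B lineage, ighd and cd37 rose in myd88+/+ as well. ighd, the constant region of immunoglobulin D, had 6 and 23 normalized counts in myd88-/- tissues at 24 hpci and 10 and 9 in untouched myd88-/- ventricles. In myd88+/+ it had 38 and 22 at 24 hpci and 0 and 1 in UT, a log2 fold change of 4.40 (limma adjusted p = 0.0011). cd37, a tetraspanin of mature B cells, had 34 and 41 at 24 hpci and 23 and 17 in UT in myd88-/-, and 69 and 71 at 24 hpci and 1 and 8 in UT in myd88+/+, where the log2 fold change was 4.06 (limma adjusted p = 0.0013). Both had more counts in myd88-/- than in untouched myd88+/+ ventricles, as cd79a did, and neither was called between the genotypes.

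Among genes whose groups did not overlap, the largest rises of the list were those of swap70a and of blnk, the adaptor that links the B cell receptor to its downstream enzymes. swap70a had 182 and 165 in myd88-/- tissues at 24 hpci and 5 and 3 in untouched myd88-/- ventricles (log2 fold change 5.15, limma adjusted p = 0.00059). blnk had 392 and 423 in myd88-/- tissues at 24 hpci and 12 and 17 at 1 hpci (4.74, limma adjusted p = 0.00018), with 84 and 26 in UT. In myd88+/+ swap70a had 86 and 167 at 24 hpci and 2 and 6 in UT. There blnk had 520 and 408 at 24 hpci and 16 and 37 at 1 hpci. Among the genes of the list that fell were cd81b, a tetraspanin gene, with 36 and 10 in myd88-/- tissues at 24 hpci and 162 and 125 in UT (-2.83, limma adjusted p = 0.0016), and prdm1a, the gene of the plasma cell factor Blimp-1, with 61 and 84 at 24 hpci and 232 and 314 at 1 hpci in myd88-/- (-1.90, limma adjusted p = 0.0056). prdm1a had 37 and 21 in untouched myd88-/- ventricles, so that its 24 hpci level was below 1 hpci and above UT. In myd88+/+ cd81b had 18 and 14 at 24 hpci and 117 and 100 in UT. There prdm1a had 61 and 70 at 24 hpci and 151 and 160 at 1 hpci.

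Immunoglobulin segments were looked up by name and biotype after the data were seen. The table held 34 such rows, of which 24 averaged 1 normalized count or less. All 34 summed to 83 and 114 in untouched myd88-/- ventricles and 58 and 78 in untouched myd88+/+ ventricles, to 41 and 21 in myd88-/- and 30 and 26 in myd88+/+ at 1 hpci, and to 106 and 166 in myd88-/- and 272 and 266 in myd88+/+ at 24 hpci. A single row, ighv1-4, held 43 to 68 of these counts in the 4 UT libraries. Without it the rows summed to 40 and 46 in untouched myd88-/- ventricles and 11 and 13 in untouched myd88+/+ ventricles. At 1 hpci the sums were 21 and 14 in myd88-/- and 17 and 13 in myd88+/+, and at 24 hpci 52 and 95 in myd88-/- and 153 and 126 in myd88+/+. Both sums had the order of cd79a in UT and at 24 hpci. Without ighv1-4 the gap between the nearest libraries of the genotypes was wider in UT (40 and 13, from 83 and 78). At 24 hpci it was narrower (95 and 126, from 166 and 266). The 3 rows named as T cell receptor chains summed to between 0 and 11 in any library, with the 11 in the library that stood apart. Reads that matched several places had been removed upstream, which can take reads from such families.

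**Figure D4:**
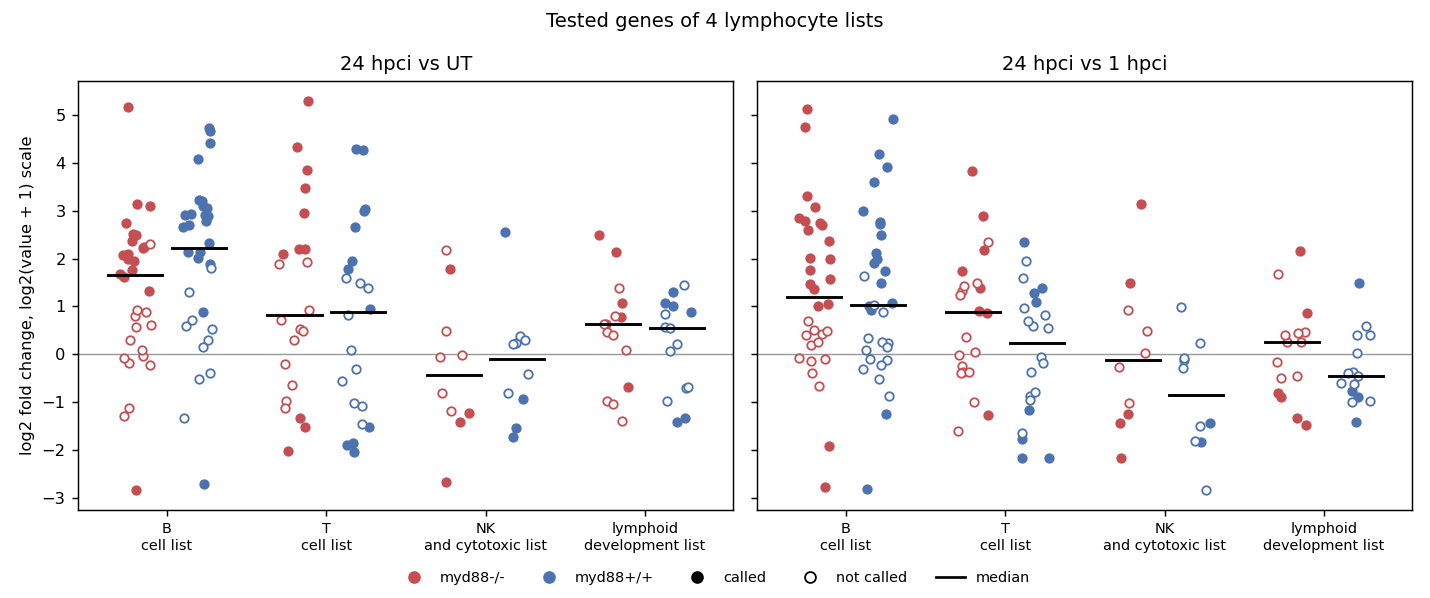
Log2 fold change on the log2(value + 1) scale (y axis) of the tested genes of 4 lymphocyte lists (x axis) at 24 hpci against UT (left) and against 1 hpci (right), with myd88-/- in red to the left of myd88+/+ in blue; filled points were called and black bars are medians. The median of the B cell list was 1.65 in myd88-/- and 2.23 in myd88+/+ against UT, and that of the NK and cytotoxic list lay at or below 0 in both genotypes.

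Of 22 tested genes of the T cell receptor and T cell list, 8 rose and 3 fell in myd88-/- between UT and 24 hpci (median log2 fold change 0.83), and 8 rose and 4 fell in myd88+/+ (median 0.89). The shares of all tested genes were 15.6% and 14.5% in myd88-/- and 19% and 20.9% in myd88+/+. Against 1 hpci, 7 rose and 1 fell in myd88-/- (median 0.88) and 4 rose and 4 fell in myd88+/+ (median 0.25). There the shares were 18.1% and 16.3% in myd88-/- and 16.9% and 18% in myd88+/+. The falls of the list were near or below these shares, as were its rises in myd88+/+ against 1 hpci. Nothing particular to the list is read from those counts. prkcq, the protein kinase C of T cell signaling and also of muscle, had 303 and 282 in myd88-/- tissues at 24 hpci and 7 and 6 in UT (5.29, limma adjusted p = 0.00029). The interleukin 10 receptor gene il10ra had 340 and 307 in myd88+/+ tissues at 24 hpci and 21 and 12 in UT (4.26, limma adjusted p = 2.4e-05). The chemokine receptor gene ccr9a had 523 and 386 at 24 hpci and 21 and 23 in UT in myd88+/+ (4.29, limma adjusted p = 6.1e-05), and the Tec-family kinase gene txk had 17 and 44 at 24 hpci and 1 and 0 in UT in myd88-/- (4.33, limma adjusted p = 0.0032). In myd88+/+ prkcq had 13 and 48 in UT and 127 and 356 at 24 hpci, and txk 7 and 8 in UT and 23 and 26 at 24 hpci. In myd88+/+ tissues at 1 hpci il10ra already had 165 and 241, and ccr9a 143 and 235. cd3eap, which was called higher in 3 of these 4 comparisons, carries a T cell name but encodes a subunit of RNA polymerase I. The count of this list is thus not one of T cells. zap70 was not called higher at 24 hpci in either genotype. The 3 rows named as T cell receptor chains summed to 0 to 4 at 24 hpci and 1 to 6 in UT.

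The genes of that list that fell included the co-stimulatory receptor genes cd28 and cd28l. cd28 had 3 and 3 in myd88+/+ tissues at 24 hpci and 12 and 15 in UT (-1.85, limma adjusted p = 0.042), and cd28l had 15 and 38 at 24 hpci and 142 and 86 at 1 hpci in myd88+/+ (-2.16, limma adjusted p = 0.0023). rorca, the gene of the factor ROR-gamma, had 97 and 44 at 24 hpci and 261 and 275 in UT in myd88-/- (-2.02, limma adjusted p = 0.045), and tox2 had 3 and 12 at 24 hpci and 20 and 48 at 1 hpci in myd88+/+ (-2.15, limma adjusted p = 0.023). The call of cd28 was lost in 12 of 22 alternatives, that of rorca in 11 of 23 and that of tox2 in 3 of 22. In the shallow replicate 1 of myd88+/+ at 24 hpci a value of 3 was 1 read, as for cd28, tox2 and, below, gzm3.3.

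Of 10 tested NK and cytotoxic genes, 1 rose and 3 fell between UT and 24 hpci in each genotype, with a median of -0.43 in myd88-/- and -0.09 in myd88+/+, and against 1 hpci 2 rose and 3 fell in myd88-/- and 0 rose and 2 fell in myd88+/+. The 4 of 10 called between UT and 24 hpci stand beside the 15.6% that rose and 14.5% that fell among all genes in myd88-/- and the 19% and 20.9% in myd88+/+, and nothing particular to the list is read from them. Against 1 hpci 18.1% of all genes rose and 16.3% fell in myd88-/-, and 16.9% rose and 18% fell in myd88+/+. Nothing particular to the list is read from those counts either. The perforin gene prf1.5 had 20 and 30 in myd88+/+ tissues at 24 hpci and 103 and 77 at 1 hpci (-1.82, limma adjusted p = 0.0020), eomesa had 1 and 0 at 24 hpci and 9 and 7 in UT in myd88-/- (-2.66, limma adjusted p = 0.021), and the granzyme gene gzm3.3 had 3 and 1 at 24 hpci and 7 and 10 in UT in myd88+/+ (-1.73, limma adjusted p = 0.034). The receptor genes that rose were nitr5, with 13 and 21 at 24 hpci and 1 and 1 at 1 hpci in myd88-/- (3.13, limma adjusted p = 0.0495), and 1 of the 2 rows named dicp1.1, with 61 and 44 at 24 hpci and 8 and 8 in UT in myd88+/+ (2.55, limma adjusted p = 0.00093). The call of nitr5 was kept in 8 of 20 alternatives and that of gzm3.3 in 13 of 22. Without the library that stood apart, where eomesa had 20, the mean of eomesa was below the limit of the test. In myd88+/+ eomesa had 1 and 3 in UT and 3 and 2 at 24 hpci.

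Of 15 tested genes of lymphoid development and V(D)J recombination, 4 rose and 1 fell in myd88-/- and 4 rose and 2 fell in myd88+/+ between UT and 24 hpci. Of all genes 15.6% rose and 14.5% fell there in myd88-/-, and 19% rose and 20.9% fell in myd88+/+. Nothing particular to this list is read from its counts either. The progenitor factor gene myb had 33 and 49 in myd88-/- tissues at 24 hpci and 8 and 5 in UT (2.49, limma adjusted p = 0.048), a call kept in 11 of 22 alternatives. lig4, the DNA ligase of end joining, had 114 and 124 at 24 hpci and 22 and 30 at 1 hpci in myd88-/- (2.17, limma adjusted p = 0.00072), with 90 and 88 in UT. gfi1b and lmo2, genes of red blood cell development, had 123 and 122 at 24 hpci against 28 and 26 in UT (2.14, limma adjusted p = 0.0015) and 156 and 227 at 24 hpci against 462 and 586 at 1 hpci (-1.46, limma adjusted p = 0.0014) in myd88-/-. gfi1b had 173 and 163 in myd88-/- tissues at 1 hpci, above its 24 hpci level. lmo2 had 166 and 189 in untouched myd88-/- ventricles, so that its 24 hpci level overlapped that of UT. No gene of the 4 lists was called between the genotypes in any state.

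As a description, the tested genes whose log2 levels were most like those of cd79a over the 12 libraries were herpud1 (Pearson r = 0.960), plekhf1 (0.947), trappc2 (0.941), lrrc1 (0.934) and zgc:171459 (0.933), and those most like lck were ccl38.6 (0.885), CU633775.2 (0.860), prickle2a (0.839), mhc1zda (0.832) and shank1 (0.831). Among the members the highest r were 0.889 between cd79b and pax5, 0.863 between cd79b and ikzf1 and 0.858 between pax5 and ikzf1, and cd79a had 0.662 with cd79b. Between lck and zap70 r was 0.455. The 12 points share their state and depth, and at so few counts a weak correlation is no finding.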

How the data were processed

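RNA from 12 pools of 3 ventricles or injured tissues was sequenced by the authors from a stranded poly(A) kit in single-end reads. Per the methods, reads were trimmed with Trimmomatic 0.39, aligned to danRer11 (Ensembl 99) with STAR 2.7.3a, cleared of duplicate and multimapping reads with Picard 2.21.7 and counted per gene with featureCounts 1.6.5, whose strand setting is not given in the sources used here. The deposited score is the count that the authors normalized with DESeq2 1.26.0 and rounded to a whole number, so no count model was used. Depth was estimated from the steps between low values.

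Groups were taken from the sample labels. Genes with a mean above 5 were tested with limma 3.58.1 (R 4.3.3) on log2(value + 1), with trend, in 1 model of 6 conditions (6 residual degrees of freedom). Columns of the authors' own contrasts were not used. The script was tested on simulated data. Other settings tried were a pseudocount of 0.5 or 5, every gene above 0, genes with a mean above 20, TMM and quantile scaling, no trend, the replicate block, only the groups compared, an adjusted p below 0.1, and each library left out.

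Named list genes were, for each lymphocyte list and direction, up to 4 called genes with the largest change whose groups did not overlap, 30 in all. The members, the lists and these rules were chosen with earlier results of these data known. The fast skeletal muscle list, the contrasts over both genotypes and the replicate block within each genotype were added after seeing the data.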

Additional observations from a re-analysis of the deposited data

How the results depend on the processing

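The count of members called at 24 hpci moved with the filter. With a mean above 20 ikzf1 was the only member tested, which gave 0 in place of 1 (myd88-/- against UT), 0 in place of 2 (myd88-/- against 1 hpci), 1 in place of 3 (myd88+/+ against UT), 0 in place of 2 (myd88+/+ against 1 hpci) and, over both genotypes, 1 in place of 3 against UT and 1 in place of 4 against 1 hpci. For myd88-/- against UT, no filter gave 2 (cd79b and pax5, of 10 tested) and an adjusted p below 0.1 gave 2. With no filter pax5 was also called higher in myd88+/+ against UT (2.81, limma adjusted p = 0.0062). In myd88-/- against 1 hpci pax5 was called (2.08, 0.029) and cd4-1 was not (0.0505). Over both genotypes pax5 was called against UT (0.0011) and 1 hpci (0.0068), but in myd88+/+ against 1 hpci it was not (1.52, 0.092). For myd88-/- against 1 hpci, a pseudocount of 0.5, quantile scaling and no trend each gave 1, without cd4-1. For myd88+/+ against 1 hpci, a fit of only the groups compared gave 0. Over both genotypes against UT, an adjusted p below 0.1 gave 5. It added cd4-1 as higher (1.71, limma adjusted p = 0.0996) and zap70 as lower (-1.03, limma adjusted p = 0.081). Leaving out each library in turn gave 0 to 1 (myd88-/- against UT), 0 to 3 (myd88-/- against 1 hpci), 2 to 3 (myd88+/+ against UT), 1 to 2 (myd88+/+ against 1 hpci) and, over both genotypes, 3 to 4 against UT and 2 to 4 against 1 hpci. These counts took calls in either direction. Without replicate 1 of myd88+/+ at 1 hpci, the member counted in myd88+/+ against 1 hpci was zap70, which was lower (-2.29). Neither cd79a nor cd79b was counted there. The counts of the other comparisons stayed at 0 in every alternative. A group left with 1 library was taken to vary like the others.

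No called fold change turned sign. The value of zap70 in myd88-/- between 24 and 1 hpci, 0.13, was -0.37 with quantile scaling and -0.45 to 0.72 with each library left out.

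Over 15 pairs of groups the correlation of the deviations of same-numbered libraries was -0.351 to 0.282. It was above 0.1 in all 3 pairs of myd88-/- groups (0.165 to 0.277), in 1 of 3 pairs of myd88+/+ groups and in 0 of 9 pairs across genotypes. No label says that a number marks a shared litter, batch or day. With the replicate number as 1 block over both genotypes, the counts of members called were 1 and 2 in myd88-/- and 3 and 2 in myd88+/+ against UT and 1 hpci, 3 and 4 over both genotypes, and 0 elsewhere, and 63 of 64 fold changes kept their call, all but rorca. Over all genes the block changed the number called between the genotypes in UT to 218, from 347 without it, at 1 hpci to 11, from 20, and for the interactions to 7, 5 and 1, from 23, 8 and 3. With a block within each genotype, chosen after seeing the data and run for the comparisons over time, 2 members were called in myd88-/- against UT in place of 1 and 3 against 1 hpci in place of 2, in each case ikzf1 added, and the other counts of members stayed. Of 61 fold changes 59 kept their call, and the interaction from 1 to 24 hpci had 6 genes called in place of 3. With single-digit counts in most libraries, depth limits every member except ikzf1.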

Other observations

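Of 17 tested genes of a list of lymphocyte chemokines, cytokines and their receptors, 4 rose and 2 fell in myd88-/- and 6 rose and 2 fell in myd88+/+ between UT and 24 hpci, where 15.6% of all tested genes rose and 14.5% fell in myd88-/- and 19% rose and 20.9% fell in myd88+/+. il21, a cytokine with which helper T cells act on B cells, had 26 and 37 normalized counts in myd88-/- tissues at 24 hpci and 1 and 1 in UT (log2 fold change 4.0, limma adjusted p = 0.0014), and in myd88+/+ 36 and 29 at 24 hpci and 3 and 2 in UT. The chemokine receptor gene ccr6a had 68 and 114 at 24 hpci and 9 and 4 in UT in myd88-/- (3.66, limma adjusted p = 0.0020), and the better covered of the 2 rows named cxcr3.1 had 76 and 71 at 24 hpci and 2 and 10 in UT in myd88+/+ (3.70, limma adjusted p = 0.0011). il13, a type 2 cytokine gene, had 71 and 48 at 24 hpci and 2 and 9 at 1 hpci in myd88+/+ (3.44, limma adjusted p = 0.0033), with 19 and 14 in UT.

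In the other direction, il15, the growth factor gene of NK cells, had 20 and 20 in myd88+/+ tissues at 24 hpci and 102 and 137 at 1 hpci (-2.51, limma adjusted p = 0.00043), with 35 and 39 in UT, and its relative il15l had 0 and 6 at 24 hpci and 75 and 39 at 1 hpci (-4.38, limma adjusted p = 0.0024), with 14 and 23 in UT. The 0 of il15l was in the shallow replicate 1 of myd88+/+ at 24 hpci. In myd88-/- il15l had 7 and 8 at 24 hpci and 8 and 8 at 1 hpci. The chemokine gene ccl25b had 38 and 11 at 24 hpci and 97 and 82 in UT in myd88-/- (-2.06, limma adjusted p = 0.016), a call kept in 19 of 23 alternatives. No interaction of genotype and time was called among the 30 named list genes, with a lowest limma adjusted p of 0.25.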
